A study of Mus musculus with 8 samples.

Results

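The 8 genes of the core circadian loop were followed in mouse epidermis with a targeted deletion of Rora, the gene of the nuclear receptor RORα: the activators Bmal1, Npas2 and Clock, and the repressors Per1, Per2, Per3, Cry1 and Cry2. They were taken as the rows of the gene count table whose Ensembl identifiers carry these symbols in the GENCODE mouse annotation, 8 genes of the 55416 listed. RNA sequencing (RNA-seq) was performed on epidermis of postnatal day 4 (P4) pups, with 4 control libraries (A1, B1, C1 and C6) and 4 Rora EKO libraries (A3, B4, C2 and C3). Control libraries are labelled WT. Rora EKO libraries are labelled as an epidermal Rora knockout, which the methods describe as a cross of Rora flox/flox mice with K14-Cre mice, and the tissue was the dorsal epidermis. The Cre transgene is driven by the keratin 14 promoter, so the deletion is directed to basal keratinocytes and the cells that descend from them, and not to melanocytes, Langerhans cells or T cells, which the samples also hold. No treatment other than age is labelled. The labels do not give the hour of collection, the sex or the litter and do not say whether control pups carried floxed alleles or Cre. The paper gives its group size for this experiment in mice, equal to the number of libraries, while the labels name no animal, and the p-values measure the spread between these libraries.

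In the circadian loop, BMAL1 pairs with CLOCK or with its close relative NPAS2, and the pair binds E-box sequences and turns on the Per and Cry genes. PER and CRY proteins gather, return to the nucleus and block the pair, which closes the loop over about a day. In a second loop, ROR receptors activate and REV-ERB receptors (Nr1d1 and Nr1d2) repress Bmal1 and its partners through the same DNA element, and the skin, keratinocytes included, keeps such a clock.

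The elements through which these loops act were looked up around the annotated start of each of the 8 genes (GRCm39, Ensembl canonical transcript), because they show which member carries the letters of a ROR, E-box or D-box element. Each line below gives 30 bases on the gene's own strand, 5′ to 3′, with the element in capitals. The first is the ROR element core of Bmal1, 106 to 112 bases downstream of the start in an untranslated part of an exon, on the plus strand at chr7:112806737-112806766.
Bmal1 ROR core: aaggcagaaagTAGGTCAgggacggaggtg
Per1 E-box: accccttaacgaCACGTGggccctcaattg
Cry1 E-box: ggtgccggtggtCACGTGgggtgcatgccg
Per2 D-box: ccatgtgcgtcTTATGTAAagagagcgacg
Per3 distal D-box: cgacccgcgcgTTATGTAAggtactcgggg
Per3 proximal D-box: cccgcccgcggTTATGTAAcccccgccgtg

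The Per1 E-box lies at positions −22 to −17 from the start on the plus strand (chr11:68989234-68989263), and the Cry1 E-box lies at −29 to −24 on the minus strand (chr10:85020961-85020990). The Per2 D-box lies at −125 to −118 on the minus strand (chr1:91387153-91387182). Per3 holds a pair of D-boxes on the minus strand, at −187 to −180 (chr4:151129309-151129338) and at −140 to −133 (chr4:151129262-151129291). Both strands were searched within 250 bases on either side of each start, for the ROR cores TAGGTCA and TGGGTCA, the E-box CACGTG, the D-box TTATGTAA and the cAMP response element TGACGTCA. Of 12110 such windows of tested genes, 2.72% held TAGGTCA, 5.35% TGGGTCA, 13.8% the E-box, 0.727% the D-box and 3.75% the cAMP response element. None of these letters was found in the windows of Npas2, Clock or Cry2. The search first covered upstream bases alone and was widened after its result was seen, and a match is a description of sequence, not of binding.

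Rora itself did not mark the genotypes at the level of whole-gene counts. It stood at 158, 193, 187 and 309 CPM (counts per 1000000 of the library size scaled with TMM factors) in control libraries A1, B1, C1 and C6, and at 154, 189, 237 and 206 CPM in Rora EKO libraries A3, B4, C2 and C3. The groups overlapped (edgeR quasi-likelihood test, log2 fold change −0.11, adjusted p = 0.877). A count over the whole gene does not show whether a floxed exon is missing, so the labels could not be checked with it.

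Libraries held 17286900 to 26705500 counts, of which mitochondrial genes took 9.07% to 23.6%. Suprabasal keratinocyte genes were abundant, with Krt1 at 29965 and Krt10 at 23895 CPM on average in control, against 132 CPM for the basal keratin Krt14. The summed suprabasal markers did not overlap between genotypes (50176 to 74790 CPM in control and 90123 to 111999 CPM in Rora EKO). That sum rested on Krt1 and Krt10 (log2 fold changes 0.70 and 0.66), while Loricrin, Flg, Ivl and Sbsn overlapped, and the median of the 6 genes was −0.02 with none past the cutoffs. The 5 basal markers overlapped in sum (186 to 501 CPM and 221 to 1189 CPM). Summed erythroid markers ran from 47.8 to 334 CPM in control and from 125 to 1041 CPM in Rora EKO, and dermal fibroblast markers from 1.37 to 6.38 CPM and from 2.51 to 10.4 CPM. Endothelial and neutrophil markers were at or under 3.18 CPM in sum in every library, with Elane at 0 throughout. Hair shaft markers summed to 2169 to 7462 CPM in control and 3777 to 6762 CPM in Rora EKO. Krt31, Krt33a, Krt81 and Hoxc13 were higher in control A1 and Rora EKO A3 than in all other libraries, while Krt34 and Krt86 were not. Sebocyte markers summed to 86.5 to 280 CPM in control and 73.1 to 162 CPM in Rora EKO, and adipocyte markers to 59.3 to 300 CPM and 90.0 to 159 CPM. Melanocyte markers summed to 25.2 to 56.2 CPM in control and 17.3 to 33.2 CPM in Rora EKO, Langerhans cell markers to 60.8 to 183 CPM and 60.8 to 82.7 CPM, and T cell markers to 12.6 to 31.8 CPM and 10.1 to 45.7 CPM. The median log2 fold change was 1.94 over the erythroid, −0.84 over the melanocyte, −0.48 over the Langerhans cell and 0.43 over the T cell markers. In each of these lists 0 genes passed the cutoffs. The part of these cells in the clock values was not tested, and in bulk samples fewer cells of a type cannot be told apart from less RNA per cell. Xist, the RNA of the inactive X chromosome, was at 416 CPM in control C1 and 527 CPM in control C6 and at or under 0.0546 CPM in the other libraries, so sex differed among controls and coincided in part with genotype. The fold changes of the 8 genes, those of the other clock genes that passed and the within-genotype correlations of named pairs are therefore also given without these 2 libraries. Counts and medians over many pairs are given for all 8 libraries only.

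Of the 3 activators 2 fell in the Rora EKO epidermis, and no repressor passed the test. Bmal1 and Npas2 were lower in Rora EKO past the cutoffs (adjusted p under 0.05 and a fold change over 1.5), Clock was lower in mean but missed the cutoff, and none of the 5 Per and Cry genes passed in either direction. All 8 genes passed the filter on low counts. Among the 13147 genes tested, 5.51% passed the cutoffs, 3.22% lower and 2.3% higher in Rora EKO, against 2 lower and 0 higher of the 8 clock genes. The groups did not overlap for 12.9% of genes tested and for 2 of the 8. An unadjusted p under 0.05 was found for 18.2% of genes tested and for 5 of the 8 (Bmal1, Npas2, Clock, Per2 and Per3). Without control C1 and C6, 2 were again lower and 0 higher past the cutoffs.

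**Figure D1:**
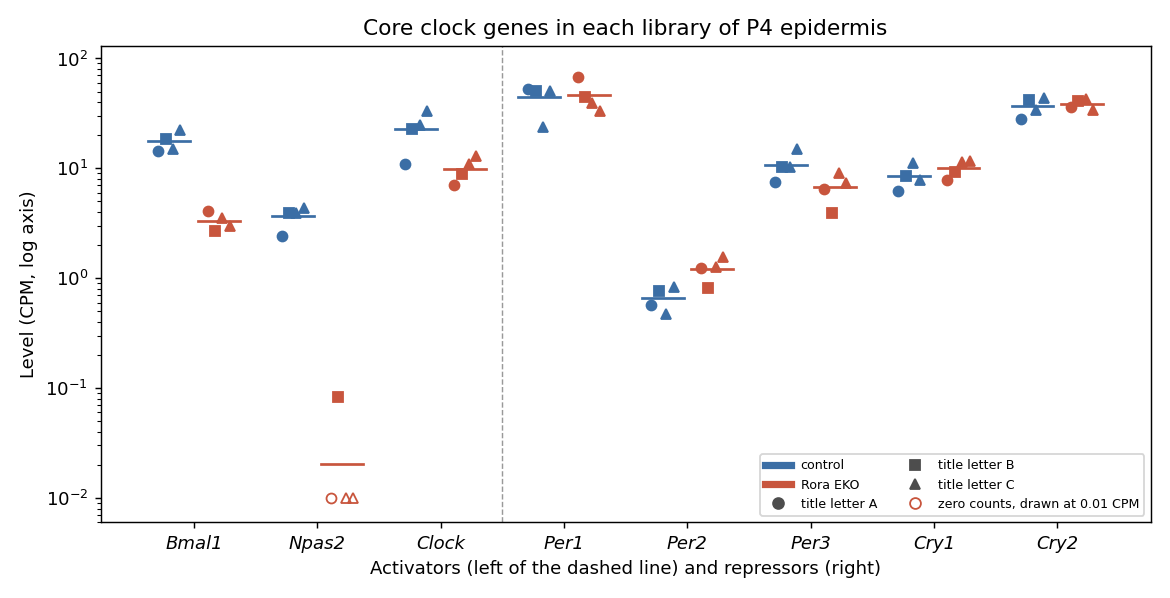
Level of the 8 core clock genes in each library, in CPM on a log axis, with control in blue, Rora EKO in red, the marker showing the first letter of the sample title and the horizontal line the mean of 4 libraries. Open markers are libraries with 0 counts, drawn at 0.01 CPM. Bmal1 and Npas2 have no overlap between genotypes, and the 5 Per and Cry genes on the right overlap.

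Bmal1 (ENSMUSG00000055116, chromosome 7, 112806152 to 112914735, plus strand) encodes the partner that both CLOCK and NPAS2 require. Its level was 14.3, 18.3, 15.1 and 22.5 CPM in control A1, B1, C1 and C6, and 4.05, 2.71, 3.52 and 2.996 CPM in Rora EKO A3, B4, C2 and C3. Every control library lay above every Rora EKO library. The mean fell from 17.6 ± 3.74 to 3.32 ± 0.589 CPM (SD, n = 4 each), a 5.29-fold reduction (log2 fold change −2.41, SE 0.193, adjusted p = 0.000238, edgeR quasi-likelihood test). Without control C1 and C6 the log2 fold change was −2.25 (adjusted p = 0.0040, same test). Bmal1 is the member with the ROR core printed above, in a window of a kind that 7.9% of tested genes share when either ROR core is counted.

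Npas2 (ENSMUSG00000026077, chromosome 1, 39232705 to 39402323, plus strand) encodes the alternative partner of BMAL1 and was nearly absent in Rora EKO. Control libraries A1, B1, C1 and C6 held 64, 72, 83 and 116 counts, or 2.44, 3.93, 3.93 and 4.35 CPM. Rora EKO B4 held 2 counts (0.0822 CPM), and Rora EKO A3, C2 and C3 held 0. All 4 Rora EKO libraries were thus at or under the floor of 3 counts, which corresponds to 0.113 to 0.196 CPM and covers counting error only. Against the mean of the floors of the 4 Rora EKO libraries, the control mean of Npas2 was 23.9-fold higher, so the Rora EKO mean was at least that much lower. This bounds the group mean and not each library, and the test on the counts gave an adjusted p of 0.000339 (edgeR quasi-likelihood test). In total 335 counts were assigned to Npas2 in control and 2 in Rora EKO, and without control C1 and C6 it was at least 20.8-fold lower by the same measure (adjusted p = 0.0070, edgeR quasi-likelihood test).

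Clock (ENSMUSG00000029238, chromosome 5, 76342860 to 76452846, minus strand) encodes the usual partner of BMAL1. Its level was 11.0001, 22.8, 24.6 and 33.5 CPM in control A1, B1, C1 and C6, and 6.98, 8.92, 11.03 and 12.8 CPM in Rora EKO A3, B4, C2 and C3. Control A1 stood below the other controls and within the range of the Rora EKO libraries, and the other 3 controls lay above all of them. The means were 23.0 ± 9.25 and 9.94 ± 2.54 CPM, and the log2 fold change of −1.21 (SE 0.388) had an adjusted p of 0.0564 in the edgeR quasi-likelihood test. The 95% interval of the difference in log2 CPM ran from −2.08 to −0.18, unadjusted for the number of genes. The call turned on control A1 and on the model: without A1 the value was −1.44 (adjusted p = 0.00547), and with the title letter as a block it was −1.16 (adjusted p = 0.00382), both in the edgeR test. DESeq2 gave −1.18 (adjusted p = 0.00744). Without control C1 and C6 it was −0.71 (adjusted p = 0.320, edgeR). Exons of Clock share bases with Tmem165, Apc-ps1 and Gm7467 on the opposite strand, and those of the other members except Per2 and Cry1 with at least 1 such gene. The library kit named in the methods keeps strand, but whether the authors' counting used it is not given in the sources used here, and without strand the reads of such pairs cannot be told apart.

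Among the activators, the proportions differed as well as the sum. Npas2 stood at 0.130 to 0.221 of the CPM of Clock in control libraries and at 0 to 0.00922 in Rora EKO. Bmal1 stood at 0.613 to 1.30 of the CPM of Clock in control and 0.233 to 0.579 in Rora EKO, again without overlap. Control A1, the library with little Clock, had the highest Bmal1 to Clock ratio of the 8, and Rora EKO A3, which shares its title letter, had the highest ratio among Rora EKO libraries.

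The Per genes encode the repressors whose level sets the pace of the loop. Per1 (ENSMUSG00000020893, chromosome 11, 68986035 to 69002300, plus strand) was at 53.0, 50.7, 23.8 and 50.0 CPM in control A1, B1, C1 and C6. In Rora EKO A3, B4, C2 and C3 it was at 68.0, 44.4, 39.0 and 32.9 CPM. Control C1 was the lowest and Rora EKO A3 the highest of all libraries, and the groups overlapped. The means were 44.4 ± 13.8 and 46.1 ± 15.4 CPM (log2 fold change 0.05, SE 0.355, adjusted p = 0.961, edgeR quasi-likelihood test), and the 95% interval of the difference ran from −0.80 to 0.94 in log2 CPM. An interval of this width leaves room for a change of either sign. The sign itself depended on the setting and was negative without control C1 (−0.15), without Rora EKO A3 (−0.14) and without control C1 and C6 together (−0.12).

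Per2 (ENSMUSG00000055866, chromosome 1, 91343700 to 91387069, minus strand) was the sparsest repressor, with 10 to 31 counts per library. It was at 0.571, 0.765, 0.473 and 0.826 CPM in control A1, B1, C1 and C6, and at 1.24, 0.822, 1.25 and 1.55 CPM in Rora EKO A3, B4, C2 and C3. Rora EKO A3, C2 and C3 lay above all controls, and Rora EKO B4 lay just under control C6. The means were 0.659 ± 0.165 and 1.22 ± 0.299 CPM, and the log2 fold change of 0.87 (SE 0.240) did not pass (adjusted p = 0.178, edgeR quasi-likelihood test). The 95% interval of the difference in log2 CPM, unadjusted, was 0.21 to 1.38, and the direction was the same in all 19 alternatives, 0.91 without control C1 and C6 (adjusted p = 0.349, edgeR).

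Per3 (ENSMUSG00000028957, chromosome 4, 151081373 to 151129140, minus strand) was at 7.46, 10.4, 10.2 and 15.01 CPM in control A1, B1, C1 and C6, and at 6.46, 3.94, 9.11 and 7.34 CPM in Rora EKO A3, B4, C2 and C3. Only control A1 and Rora EKO C2 crossed between the groups. The means of 10.8 ± 3.13 and 6.71 ± 2.15 CPM gave a log2 fold change of −0.68 (SE 0.324, adjusted p = 0.228, edgeR quasi-likelihood test). Its 95% interval, −1.49 to 0.10, included 0, and without control C1 and C6 the log2 fold change was −0.36 (adjusted p = 0.602, edgeR). Per2 and Per3, which both carry the rare D-box in their windows, thus had mean values of opposite sign. A test of the difference between them was not run.

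The cryptochromes, the repressors that hold the activator pair most directly, overlapped between genotypes and did not pass the test. Cry1 (ENSMUSG00000020038, chromosome 10, 84967560 to 85021252, minus strand) was at 6.24, 8.58, 11.1 and 7.88 CPM in control A1, B1, C1 and C6, and at 7.77, 9.29, 11.4 and 11.5 CPM in Rora EKO A3, B4, C2 and C3. Cry1 had means of 8.46 ± 2.03 and 9.99 ± 1.80 CPM (log2 fold change 0.24, SE 0.217, adjusted p = 0.621, edgeR quasi-likelihood test; 95% interval −0.28 to 0.78). Cry2 (ENSMUSG00000068742, chromosome 2, 92233894 to 92264474, minus strand) was at 27.9, 42.2, 33.9 and 43.2 CPM in control A1, B1, C1 and C6, and at 36.2, 41.4, 42.4 and 33.6 CPM in Rora EKO A3, B4, C2 and C3. Its means were 36.8 ± 7.26 and 38.4 ± 4.23 CPM (log2 fold change 0.06, SE 0.168, adjusted p = 0.910, same test; 95% interval −0.34 to 0.49). Of the 8 genes Cry2 had the narrowest interval, and its ends are within a fold of 1.5 in either direction. Without control C1 and C6 the log2 fold changes were 0.48 for Cry1 (adjusted p = 0.344) and 0.18 for Cry2 (adjusted p = 0.686), both in the edgeR test.

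Levels between genes were compared as CPM per kilobase of the canonical transcript. In control the order was Cry2 (8.89 ± 1.75), Per1 (6.63 ± 2.06), Bmal1 (4.11 ± 0.877), Cry1 (2.78 ± 0.666), Clock (2.32 ± 0.933), Per3 (1.79 ± 0.520), Npas2 (0.852 ± 0.196) and Per2 (0.113 ± 0.0282). The ranges of neighbours in this order overlapped down to Per3, and only Npas2 stood apart from Per3 and Per2 from Npas2. In Rora EKO the order was Cry2 (9.28 ± 1.02), Per1 (6.89 ± 2.29), Cry1 (3.28 ± 0.591), Per3 (1.12 ± 0.357), Clock (1.003 ± 0.256), Bmal1 (0.778 ± 0.138), Per2 (0.208 ± 0.0512) and Npas2 (0.00478 ± 0.00955). There Cry2 overlapped with Per1, and Per3 with Clock and Clock with Bmal1, whereas Per1 and Cry1, Cry1 and Per3, Bmal1 and Per2, and Per2 and Npas2 were separated. Bmal1 moved from rank 3 to rank 6 and Npas2 from rank 7 to rank 8.

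Summed over the arm, Bmal1, Npas2 and Clock reached 5.02, 7.51, 6.94 and 9.67 CPM per kilobase in control A1, B1, C1 and C6. They reached 1.65, 1.55, 1.94 and 1.997 CPM per kilobase in Rora EKO A3, B4, C2 and C3. Even the lowest control, A1, was above every Rora EKO library. The 5 repressors summed to 18.0, 22.4, 17.2 and 23.2 CPM per kilobase in control and to 22.7, 20.5, 21.5 and 18.3 in Rora EKO, in the same order of libraries, and these ranges overlapped. The activator sum was therefore 0.278 to 0.418 of the repressor sum in control and 0.0727 to 0.109 in Rora EKO. These sums are descriptions, with no test of their own.

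**Figure D2:**
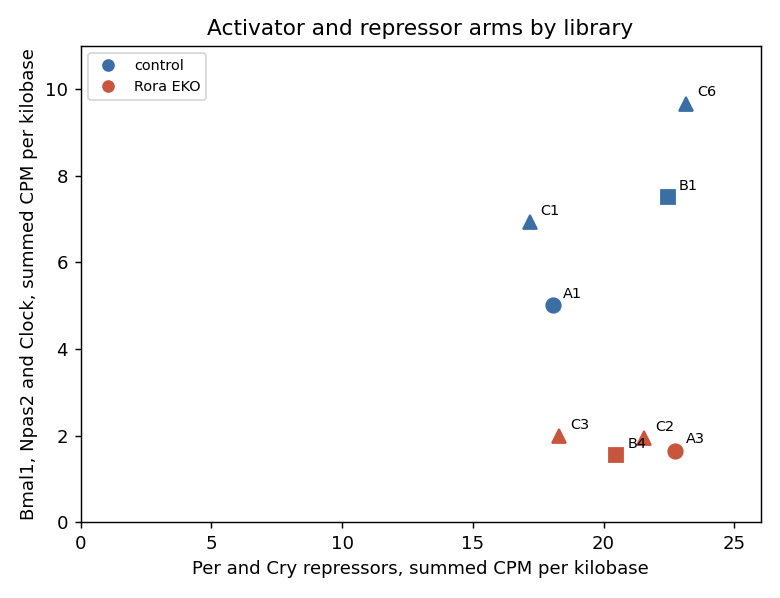
Sum of the 3 activators (vertical axis) against the sum of the 5 Per and Cry repressors (horizontal axis) in each library, both in CPM per kilobase of transcript, with control in blue, Rora EKO in red and the library name beside each point. The 4 Rora EKO libraries lie at 1.55 to 1.997 on the vertical axis and the 4 control libraries at 5.02 to 9.67, while on the horizontal axis they span 18.3 to 22.7 and 17.2 to 23.2.

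The median log2 fold change was −2.41 over the 3 activators, which is the value of Bmal1 and stays so with Npas2 at its bound, and 0.06 over the 5 repressors. Over all genes tested it was −0.04. Without control C1 and C6 the medians were −2.25 and 0.18. The ratios of single activators to cryptochromes separated the genotypes too, with Bmal1 at 0.434 to 0.521 of Cry2 in control and 0.0655 to 0.112 in Rora EKO, and Clock at 1.76 to 4.25 times Cry1 in control and 0.899 to 1.11 times Cry1 in Rora EKO. Clock to Cry2 was barely apart, at 0.394 to 0.774 in control and 0.193 to 0.382 in Rora EKO. The ratio of Cry1 to Cry2 overlapped (0.182 to 0.328 and 0.215 to 0.343).

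The first letter of the sample titles (A with 1 library per genotype, B with 1 and C with 2) is not explained in the labels, and each letter holds both genotypes. Bmal1 was lower in Rora EKO by log2 ratios of −1.82 in A, −2.75 in B and −2.53 in C. Clock was lower by −0.66, −1.36 and −1.28, and Npas2, Clock, Bmal1 and Per3 each had every Rora EKO library below every control of the same letter. Per2 and Cry1 had every Rora EKO library above the controls of the same letter, with log2 ratios of 1.12, 0.10 and 1.11 for Per2 and 0.31, 0.11 and 0.27 for Cry1. Per1 and Cry2 were higher in Rora EKO in A, lower in B and mixed in C. With 1 library per genotype in A and in B, any 2 unequal values are separated, so there only the direction is informative. How many of all genes tested show such separation was not counted. Per2, Per3 and Cry1 did not pass the test between genotypes. With 1 or 2 libraries per genotype in a letter these are values with no test.

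The rest of the clock was read from lists of genes with a known place in it. Of 4 nuclear receptors of the second loop (Rora, Rorb, Nr1d1 and Nr1d2), 3 were tested and 2 fell. Nr1d1, which encodes REV-ERBα, was at 16.9, 22.4, 11.8 and 21.6 CPM in control A1, B1, C1 and C6, and at 1.501, 0.945, 1.25 and 0.699 CPM in Rora EKO A3, B4, C2 and C3, without overlap (log2 fold change −4.06, SE 0.305, adjusted p = 0.000112, edgeR quasi-likelihood test). Nr1d2, which encodes REV-ERBβ, averaged 8.85 ± 1.98 CPM in control and 2.96 ± 0.322 CPM in Rora EKO (same test, log2 fold change −1.58, adjusted p = 0.00173). Rorb had 0 counts in every library.

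Of 7 output factors, which carry the rhythm to other genes, 6 were tested and 1 fell. Dbp, an activator that binds the D-box and a direct E-box target of the clock, was at 5.06, 5.14, 3.98 and 6.01 CPM in control A1, B1, C1 and C6, and at 0.587, 0.288, 0.530 and 0.849 CPM in Rora EKO A3, B4, C2 and C3 (log2 fold change −3.17, SE 0.296, adjusted p = 0.000597, edgeR quasi-likelihood test). Tef and Hlf, its relatives, had log2 fold changes of −0.28 and −0.46, and Nfil3, which represses through the D-box, had −1.01 (adjusted p = 0.112, same test). Among 12 kinases and ubiquitin enzymes that act on PER and CRY, 11 were tested and 0 passed, with a median of −0.13. Among 14 partners and cofactors, all tested, Timeless rose from 0.924 ± 0.301 to 2.46 ± 0.235 CPM (same test, log2 fold change 1.40, adjusted p = 0.0194) and the other 13 did not pass. Without control C1 and C6, Nr1d1 (−4.12), Nr1d2 (−1.46) and Dbp (−3.13) passed again (adjusted p = 0.00115, 0.0138 and 0.0090 in the edgeR test), and Timeless did not (1.43, adjusted p = 0.113). Lower past the cutoffs were thus 2 of 3 receptors tested, 1 of 6 outputs, 0 of 11 kinases and ubiquitin enzymes and 0 of 14 partners. Higher past them was 1 of the 14 partners, Timeless, and 0 genes of the other lists. Over all genes tested the shares were 3.22% lower and 2.3% higher, and a single higher gene is too few to set against that share.

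**Figure D3:**
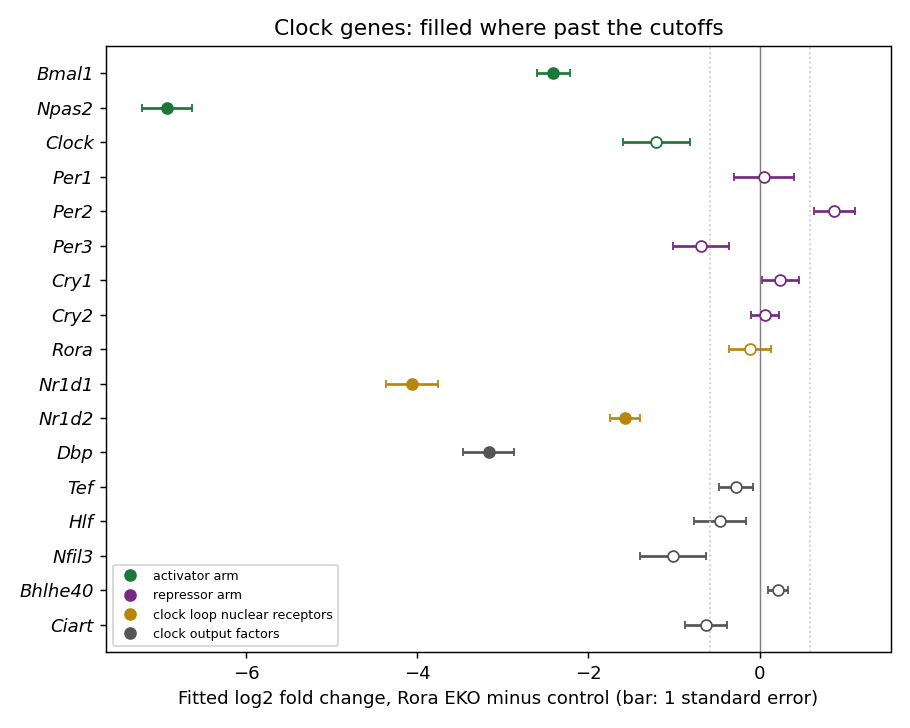
Fitted log2 fold change, Rora EKO minus control, of the 8 core clock genes and of the tested second-loop receptors and output factors, with bars of 1 standard error, filled where past the cutoffs, and dotted lines at a fold of 1.5. Bmal1 (−2.41), Nr1d1 (−4.06), Nr1d2 (−1.58) and Dbp (−3.17) are filled on the left, the point of Npas2 depends on the prior count of the fit, and the 5 Per and Cry genes are open and lie between −0.68 and 0.87.

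Covariation between libraries was measured within genotype, as the correlation of the deviations of log2 CPM from the genotype means over the 8 libraries, with an exact two-sided permutation of libraries within genotype and adjustment over the 28 pairs of genes. No pair had an adjusted p under 0.05, and 1 had an unadjusted p under 0.05. With so few libraries a single pair could pass only at the smallest p that the permutations allow. The 7 pairs with Npas2 carry little information, because its deviations in Rora EKO are set by 2 counts in B4, 0 counts elsewhere and the prior count. Without Rora EKO B4, for example, r of Npas2 and Clock went from 0.456 to 0.864 and r of Npas2 and Per3 from −0.208 to 0.793, and without control C1 and C6 they were 0.265 and −0.551. Among the 21 pairs without Npas2, 17 had a positive Pearson r and the median r was 0.408. These pairs share genes and so are not independent. The share of positive pairs among other genes of these libraries was not computed, so the count has no background to be read against.

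The permutation did not take the title letter into account. For 5 of the 8 genes the libraries of letter A deviated the same way, a number that unrelated signs could also give, so it does not show an effect of the letter. Control A1 and Rora EKO A3 were below their genotype means by −0.95 and −0.47 log2 CPM for Clock and by −0.40 and −0.34 for Cry1, and above them by 0.32 and 0.61 for Per1. Npas2 and Cry2 were below in both as well, but for Npas2 the deviation of Rora EKO A3 is that of 0 counts, as in C2 and C3. For Bmal1 (−0.27 and 0.30), Per2 (−0.15 and 0.06) and Per3 (−0.48 and 0.01) the deviations had opposite signs. Values of r are also given for the residuals from genotype and letter, a choice made after seeing the data, as a description with no test. With a single library per genotype in A and in B, the residuals of A1 and A3, and of B1 and B4, are equal and opposite by construction. Fewer values are then free to vary, so a larger r with the letter taken out cannot be read as stronger covariation. With the letter taken out, 15 of the 21 pairs without Npas2 were positive, the median r was 0.676, 6 pairs changed sign, and all 6 pairs with Cry1 were negative. Clock and Per1, for example, went from −0.479 to 0.715, whereas without control C1 and C6 their r was −0.690.

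The pair with an unadjusted p under 0.05 was Per1 and Cry1, which ran against each other (r = −0.896, exact p = 0.00347, adjusted p = 0.0972; Spearman rho = −0.881, exact p = 0.0104, adjusted p = 0.267). Its r was −0.776 without the 2 libraries farthest from the median of Per1, −0.947 to −0.818 with 1 library left out, −0.821 without control C1 and C6, and −0.795 with the letter taken out. Control C1, the library with the least Per1, had the most Cry1 of the controls, and Rora EKO A3, with the most Per1, had the least Cry1 of its genotype. The part of depth and cell composition, which the libraries do not share equally, was not tested.

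Between the arms, 8 of the 10 pairs without Npas2 were positive, with a median r of 0.602, again with no background from other gene pairs. The highest was Bmal1 and Per3 (r = 0.725, exact p = 0.0556, adjusted p = 0.397; rho = 0.857, exact p = 0.0191, adjusted p = 0.267), with r = 0.788 without the 2 farthest libraries, 0.635 without control C1 and C6, and 0.902 with the letter taken out. Clock and Cry1 had r = 0.721 (exact p = 0.0851, adjusted p = 0.397; rho = 0.738, exact p = 0.0694, adjusted p = 0.4375). It dropped to 0.0314 without the 2 farthest libraries, control A1 and Rora EKO A3, and to −0.43 with the letter taken out. With 1 library left out it ran from 0.474 to 0.946, and it was 0.959 without control C1 and C6. Within the repressor arm Per2 and Per3 had r = 0.736 (exact p = 0.0712, adjusted p = 0.397; rho = 0.810, exact p = 0.0313, adjusted p = 0.292), with 0.660 without the 2 farthest libraries, 0.850 without control C1 and C6, and 0.790 with the letter taken out. Within the activator arm Bmal1 and Clock had r = 0.374 (exact p = 0.450, adjusted p = 0.741; rho = 0.452, exact p = 0.333, adjusted p = 0.778). This value turned on single libraries, at −0.022 without control A1, 0.012 without control C6 and 0.735 without Rora EKO A3, and was 0.097 without control C1 and C6 and 0.849 with the letter taken out.

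**Figure D4:**
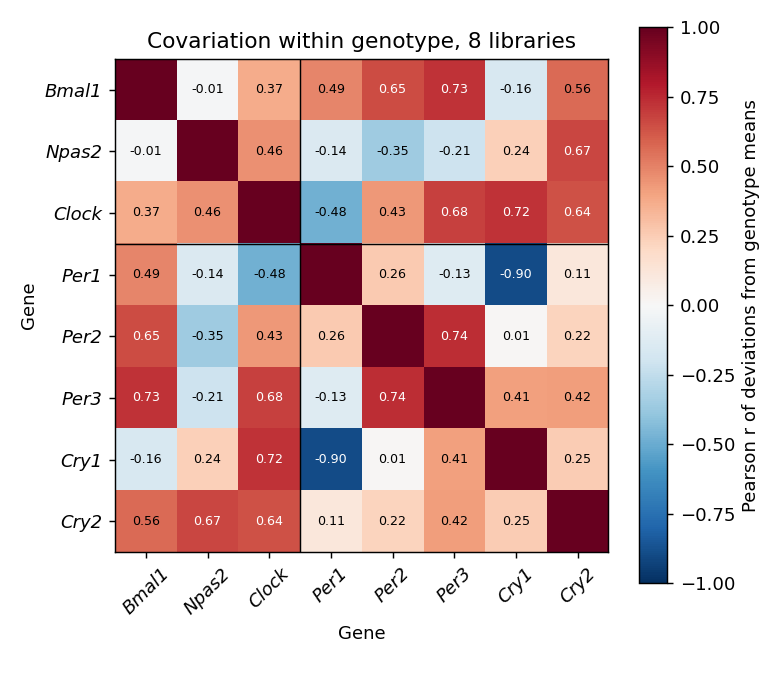
Pearson r between the deviations of log2 CPM from the genotype means for each pair of the 8 genes over 8 libraries, from −1 in blue to 1 in red, with lines between activators and repressors. Per1 and Cry1 (−0.90) form the darkest blue cell, and no pair passed an adjusted p of 0.05.

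Among the genes tested, those whose log2 CPM followed each member most closely over the 8 libraries were named as a description, with no test. Libraries of both genotypes enter these values, so for Bmal1 and Npas2 the step between genotypes sets most of r. For Bmal1 they were Ttc9 (r = 0.996), Gm50222 (0.995) and Gm30790 (0.995), and for Npas2 they were Gtf2f2 (0.996), Pgrmc2 (0.993) and Gm50022 (0.990). Clock went with ENSMUSG00000101257 (0.981), Armc8 (0.977) and Msantd4 (0.976), and Per3 with Mrgprb2 (0.991), Asb13 (0.988) and Slc16a1 (0.985). Among the other repressors, Per1 went with 1500002F19Rik (0.938), Dnajb12 (0.938) and ENSMUSG00000097313 (0.935), and Per2 with Gm9828 (0.955), Gm8080 (0.955) and Man2c1 (0.953). Cry1 went with Chml (0.971), Ddx51 (0.964) and Men1 (0.964), and Cry2 with Zbtb5 (0.963), Spart (0.930) and Phf2 (0.926). No member was among the 3 closest genes of another.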

How the data were processed

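RNA was measured in 8 libraries of P4 mouse epidermis, 4 control and 4 Rora EKO, grouped by the titles and genotype labels. The authors prepared stranded TruSeq mRNA libraries, and the submitters' processing notes name bcl2fastq 2.20.0.422, STAR 2.5.3a, RSEM, edgeR 3.28.0 and the build GRCm39. The authors deposited RSEM expected counts per Ensembl gene, not scaled for depth or length. The annotation release and the strand setting are not given in the sources used here. Counts were rounded to whole numbers, and symbols and coordinates came from GENCODE M39 on GRCm39, which held 54749 of the 55416 identifiers. Genes were filtered with filterByExpr (minimum count 10). TMM factors were applied, and edgeR 4.0.16 (R 4.3.3) gave quasi-likelihood p-values in its legacy form, the default of this version, with Benjamini-Hochberg adjustment over 13147 genes. The standard error and the 95% interval are those of the difference of mean log2 CPM with a prior count of 2. Calls needed an adjusted p under 0.05 and a fold change over 1.5. With counts simulated for the Rora EKO against control comparison (13205 genes), 98.9% of the tested genes changed by 2 on the log2 scale were recovered and 5.29% of calls were false. Library totals were 17286900 to 26705500 counts, so that 3 counts are 0.113 to 0.196 CPM. CPM per kilobase used the Ensembl canonical transcript. Covariation used Python 3.11.15. Alternatives were DESeq2 1.42.0, the likelihood ratio test and non-legacy form of edgeR, other scalings and filters, a block on the title letter, Xist as a covariate and each library left out. Leaving out control C1 and C6 together, leaving pairs with Npas2 out of the covariation counts, and taking the title letter out of the correlations were chosen after seeing the data. The 8 genes, the lists, and the rule for genes named (every member, other clock genes past the cutoffs or in the second loop, of which 1 is not reported here, and the 3 genes most like each member) were chosen with earlier results of these data known. The values given beyond that rule (Tef, Hlf, Nfil3 and the cell markers) belong to the same lists.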

Additional observations from a re-analysis of the deposited data

Results flagged for a closer look

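In 3 of 38 groups of 4 libraries checked among the clock genes, 1 library lay far from the other 3 by Dixon's criterion, and chance gives about 5% of groups. Per1 in control C1 was at 23.8 CPM, against 50.0 to 53.0 CPM in the other controls. Npas2 in Rora EKO B4 was at 0.0822 CPM, which is 2 counts, against 0 in the other Rora EKO libraries. With all the others at 0, any count would have been flagged, so this group cannot be set against the 5%. Tef in Rora EKO C2 was at 42.4 CPM, against 28.1 to 30.2 CPM in the other Rora EKO libraries.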

How the results depend on the processing

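Bmal1 passed the cutoffs in all 19 alternatives and Npas2 in the 18 that tested it, and none of the 8 members passed as higher in any. The filter of at least 10 counts in every library drops Npas2, so that 1 gene was lower and the activator median was −1.81. With each library left out in turn, 2 to 3 members were lower and 0 higher, the activator median ran from −2.50 to −2.24, the repressor median from 0.02 to 0.19, and all genes past the cutoffs from 457 (without control B1) to 896, with 475 without Rora EKO C3, against 725. That count was 460 with Xist as a covariate, 314 without control C1 and C6 (a choice made after seeing the data), 1031 with DESeq2, 1009 with the likelihood ratio test and 999 with the title letter as a block. Clock passed in 5 of 19 alternatives, with adjusted p from 0.00382 to 0.320, and its log2 fold change was −0.75 with Xist as a covariate (adjusted p = 0.258). Per1 changed sign with library size alone (−0.015), with Xist as a covariate (−0.17), without control C1 and C6 (−0.12), without Rora EKO A3 (−0.14) and without control C1 (−0.15), and Cry2 did so without control A1 (−0.051) and reached 0.173 without control C6. The cause was not tested. No pair of members covaried at an adjusted p under 0.05 with another prior count or either other scaling, or among the 21 pairs without Npas2. With libraries left out, too few permutations remain for a single pair to pass, so those alternatives say nothing about stability. The genotypes share no replicate number, so the block used only the title letter, whose meaning the labels do not give, and of the 8 clock genes it changed the call of Clock alone. Depth limits Per2 (10 to 31 counts per library) and Npas2 in Rora EKO (0 to 2 counts).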
